A study of Eptesicus fuscus and Canis lupus familiaris and Equus caballus with 4 samples.

Results

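The miR-17-92 cluster of the big brown bat, Eptesicus fuscus, was represented by 7 hairpin candidates at 4 loci on the contig ALEH01123613.1, out of 762 candidates listed for the bat testis and 1453 listed for the bat, the horse and the dog together. Such a candidate is a short genomic segment whose RNA is predicted to form a stem and loop, with small RNA reads on at least 1 arm of the stem. The 7 members are all the candidates listed on that contig, and they were chosen by position and not by their read counts.

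The series sequenced the small RNA fraction of snap-frozen adult testis of these species as 50 bp single-end reads, and asks about the origin of putative bat miRNAs. It holds 4 libraries, namely 1 of the dog, 1 of the horse and those of a pair of bat individuals. The files of 3 libraries, 1 per species, were used. The other bat library was not analysed here. No strain, treatment or time point separates the libraries, so the cluster is described within 1 bat library, with no replicate and no test.

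MicroRNAs are cut from hairpins by Drosha and Dicer, and each hairpin can give a mature RNA from its 5p arm and another from its 3p arm. The base stretch near the 5′ end of the mature RNA, the seed, pairs with target mRNAs. The miR-17-92 cluster is copied as a single primary transcript that holds several hairpins, acts in cell proliferation and survival, and is amplified or overexpressed in some lymphomas. In mouse testis this cluster and its relative around miR-106b, miR-93 and miR-25 are known to act in spermatogonial differentiation.

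The listed mature sequences are shown because the seeds divide the members into families. Capitals mark bases 2 to 8, counted from the 5′ end of the listed sequence, and T stands for U as in the deposited list. In order along the plus strand of ALEH01123613.1 they are:
miR-17-5p, Candidate_293: tCAAAGTGcttacagtgcaggtagt
miR-17-3p, Candidate_292: aCTGCAGTgaaggcacttgtagcat
miR-18a-5p, Candidate_290: tAAGGTGCatctagtgcagatagtg
miR-18a-3p, Candidate_285: aCTGCCCTaagtgctccttctggc
miR-20a-5p, Candidate_286: tAAAGTGCttatagtgcaggtagtg
miR-92a-1-5p, Candidate_291: aGGTTGGGatcagttgcaatgct
miR-92a-3p, Candidate_288: tATTGCACttgtcccggcctgtt

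MiR-17-5p and miR-20a-5p are close relatives. Their listed sequences were equal at 22 of 24 compared bases and differed by C2T and C13T, counted from the 5′ end of the miR-17-5p sequence. The miR-17 family motif AAAGTGC lay at bases 2 to 8 of miR-20a-5p but at bases 3 to 9 of miR-17-5p, since the listed miR-17-5p sequence has 1 more base at its 5′ end. MiR-18a-5p carried AAGGTGC at bases 2 to 8 and differed from miR-20a-5p at 4 of 25 bases, A4G, T9A, A11C and G20A, counted in miR-20a-5p. MiR-92a-3p, with ATTGCAC, belongs to another seed family. The cluster thus listed 3 of the seed families usually found in it. The miR-19 family was the one without a candidate on this contig.

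The hairpins show how the arms lie. Capitals mark the sequences listed as mature on either arm:
miR-17 hairpin, 1597 to 1691: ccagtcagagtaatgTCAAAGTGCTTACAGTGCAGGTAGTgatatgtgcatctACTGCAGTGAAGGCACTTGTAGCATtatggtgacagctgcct
miR-18a hairpin, 1712 to 1856: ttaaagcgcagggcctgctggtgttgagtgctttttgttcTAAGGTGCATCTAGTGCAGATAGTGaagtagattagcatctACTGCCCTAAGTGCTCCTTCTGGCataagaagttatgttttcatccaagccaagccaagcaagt
miR-20a hairpin, 2036 to 2150: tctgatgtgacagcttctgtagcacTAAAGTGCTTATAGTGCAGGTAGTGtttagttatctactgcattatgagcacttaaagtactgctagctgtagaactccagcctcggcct
miR-92a hairpin, 2287 to 2397: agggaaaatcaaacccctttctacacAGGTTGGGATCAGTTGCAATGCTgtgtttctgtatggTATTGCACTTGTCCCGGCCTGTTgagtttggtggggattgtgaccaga

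All 4 loci lay on the plus strand within 809 bases, from 1595 to 2403. Candidates that overlapped on the same strand were taken as 1 locus. The miR-17 locus came first, from 1595 to 1691, and the miR-18a locus began after 20 bases, from 1712 to 1856. The miR-20a locus followed after a gap of 179 bases, from 2036 to 2150, and the miR-92a locus after 132 bases, from 2283 to 2403. In other mammals miR-19a lies between miR-18a and miR-20a, and miR-19b between miR-20a and miR-92a. The 2 wider gaps are these places, and no candidate was listed in either. A list of predicted hairpins does not show a measured 0, so reads from these places cannot be judged.

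The loci followed the same order, by position, as miRNA genes in a RefSeq annotation of another bat assembly, DD_ASM_mEF_20220401. There the miRNA genes MIR17, MIR18, MIR20 and MIR92C follow each other, between the long noncoding RNA gene LOC114228050 and GPC5, a cell-surface glypican gene. The last name differs from miR-92a, since MIR92A is there the name beside MIR19. This comparison rests on order and the other names only, since no sequence of that assembly was read. Gene order does not say whether the miRNA genes lie inside a neighbouring gene, and exon or intron is not stated for the contig.

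**Figure D1:**
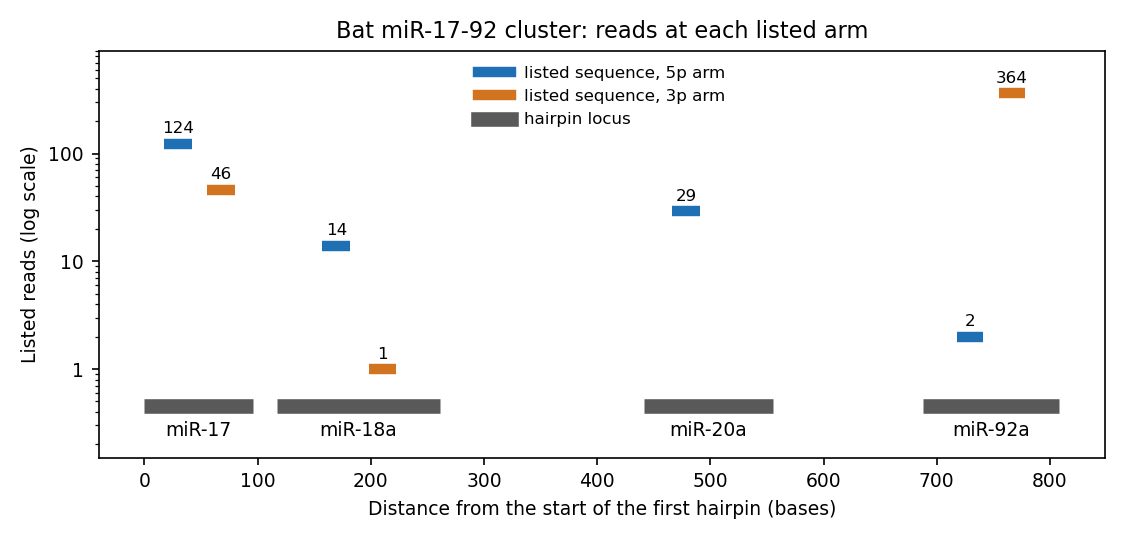
Reads at each listed mature sequence of the bat miR-17-92 cluster (log scale) against distance from the start of the first hairpin in bases, with 5p sequences in blue, 3p sequences in orange and the hairpin loci as grey bars. The 3p sequence of miR-92a (364 reads) and the 5p sequence of miR-17 (124 reads) stand above the others, and the gap between miR-18a and miR-20a is the widest.

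As listed, reads were concentrated at the ends of the cluster. MiR-92a-3p had 364 reads in 44 distinct sequences, and miR-17-5p had 124 reads in 14. MiR-17-3p followed with 46 reads in 17 distinct sequences, miR-20a-5p with 29 in 10 and miR-18a-5p with 14 in 10. The lesser arms of miR-92a and miR-18a were below the list's median of 3 reads, with 2 reads for miR-92a-1-5p and 1 read for miR-18a-3p. These are deposited counts without scaling for depth.

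By locus, the miR-92a hairpin held 366 of the 580 cluster reads. That was 63.1% (exact Clopper-Pearson 95% interval 59.03 to 67.04). MiR-17, which gives the cluster and its main seed family their name, held 170 reads or 29.3% (25.6 to 33.2). MiR-20a held 29 reads or 5.0% (3.37 to 7.10) and miR-18a 15 reads or 2.59% (1.45 to 4.23). The intervals of miR-18a and miR-20a overlapped, and the others did not. Intervals on reads treat each read as an independent draw and cover no spread between animals. Reads without molecular identifiers are not independent molecules, and a read can be listed at several candidates. The counting error may therefore be wider than these intervals.

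As listed, the highest locus thus had 24.4 times the reads of the lowest, although the hairpins lie within 809 bases of each other. The ends of the cluster, miR-17 and miR-92a, held 536 listed reads or 92.4% of the total, and the middle hairpins held 44. Of the 536 reads, 366 were at miR-92a, and most of these cannot be assigned between this locus and a further copy described below. Less that copy's reads, miR-92a held 6.14% of the cluster, below miR-20a at 12.7%. In distinct sequences the loci were closer, with 46 for miR-92a, 31 for miR-17, 11 for miR-18a and 10 for miR-20a. The miR-92a share was then 46.9% (36.8 to 57.3), and its interval overlapped that of miR-17, 31.6% (22.6 to 41.8). The intervals of miR-18a and miR-20a overlapped here too. Distinct sequences are not independent draws. Intervals on their shares, here and below, therefore do not measure sampling spread, and their overlap is no test.

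**Figure D2:**
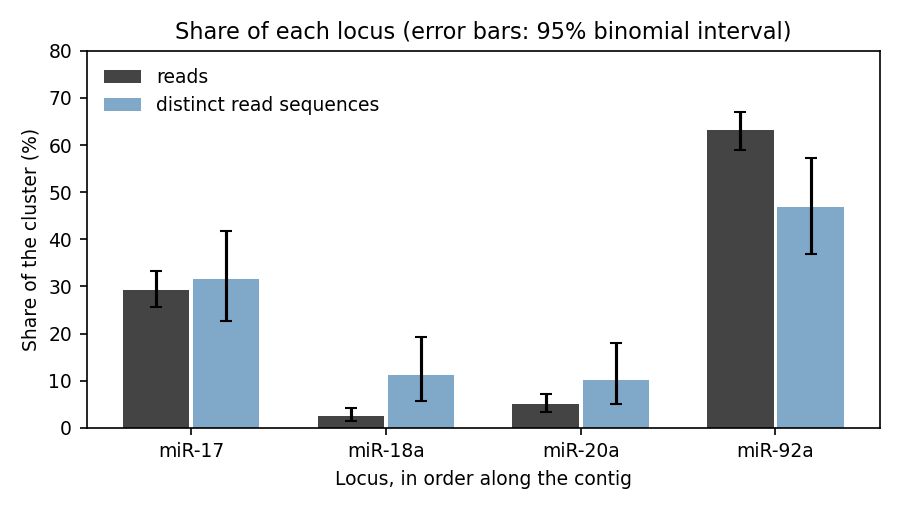
Share of each of the 4 loci in the cluster's reads (dark bars) and in its distinct read sequences (light bars), in percent and in order along the contig, with exact 95% binomial intervals as error bars. As listed, miR-92a is highest by both measures, at 63.1% of reads and 46.9% of distinct sequences. By distinct sequences its interval overlaps that of miR-17, and miR-18a and miR-20a overlap by both. Most miR-92a reads cannot be assigned between this locus and a further copy. Distinct sequences are not independent draws, so their intervals do not measure sampling spread.

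The miR-92a count is not specific to this locus. A further hairpin, Candidate_282 at ALEH01127992.1, 27122 to 27222 on the plus strand, lists a mature sequence with the same first 22 bases that differs only by T23G, counted in the cluster's sequence. It is shown with its hairpin, mature part in capitals, because the flanks tell the copies apart:
miR-92a copy, Candidate_282: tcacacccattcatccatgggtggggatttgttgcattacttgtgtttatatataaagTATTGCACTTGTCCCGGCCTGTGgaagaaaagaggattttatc

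That copy had 352 reads in 45 distinct sequences, against 364 in 44 at the cluster. Reads confined to these 22 bases are equal in both copies. Across the bat list, mature sequences listed identically at several candidates formed 68 sets, and in 65 of them each candidate listed 1 common read count. The best local alignment of the hairpins had 64 equal positions of 83, or 77.1%.

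The counts of the copies differ by 12 reads. If all 352 reads of the other copy were also counted at the cluster, 228 reads of the cluster would be left. The miR-92a locus would then hold 6.14% of them and miR-17 74.6%. Which of these loci the miR-92a reads came from cannot be told apart from these counts. Among the listed hairpins of other contigs, none shared so long an unbroken stretch with the other members. The longest stretch of any of the other 6 mature sequences in a listed hairpin of another contig, on either strand, was 13 bases. An unbroken stretch misses near copies with scattered differences. Within the cluster, miR-17-5p and miR-20a-5p were equal at 22 of 24 bases, with a longest shared stretch of 12. Whether reads of the other members also map elsewhere was therefore not tested. Copies outside the list were not searched, since no genome was used.

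The favoured arm differed along the cluster. At miR-17 the 5p arm had 124 reads and the 3p arm 46, so that 5p made up 72.9% (65.6 to 79.5). At miR-18a the 5p arm had 14 of 15 reads, or 93.3% (68.1 to 99.8). At miR-92a the order was opposite, with 2 reads on the 5p arm and 364 on the 3p arm, and 5p made up 0.546% (0.0662 to 1.96).

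The miR-17 arms were the most evenly read. In distinct sequences the 3p arm of miR-17 was ahead, with 17 against 14, and the 5p share was 45.2% (27.3 to 64.0). At miR-92a 5p remained the lesser arm by distinct sequences, with 2 against 44. With the shared miR-92a reads taken off, the 3p arm would have 12 reads and 5p would make up 14.3%. At miR-20a, 5p was the listed arm and the 3p arm had no candidate. The sources used here do not say whether a read can count towards both overlapping candidates of a locus.

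The arms were spaced alike. Between the listed 5p and 3p sequences lay 13 bases at miR-17, 16 at miR-18a and 14 at miR-92a. Candidates on both arms were listed at 3 of the 4 loci, and at 87 of all 669 bat loci (13.0%). The most-read arm began with T at all 4 loci, whereas the lesser arm began with A at each of the 3 loci that listed one. Over the whole bat list T was the first base in 47.2% and A in 23.5% of mature sequences.

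Reads per distinct sequence also differed among the members, though this ratio cannot exceed a member's read count. MiR-17-5p had 8.86 reads per distinct sequence and miR-92a-3p 8.27. The other members had from 1 to 2.9, where miR-20a-5p was highest. Among the 255 bat candidates with at least 10 reads the median was 4.88, and the middle 50% of them (interquartile range) lay between 2.61 and 8.53. MiR-17-5p was thus above this range and miR-18a-5p, at 1.4, below it. The 255 candidates were not matched to the members by reads, so the ratio is not separate from the read counts.

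**Figure D3:**
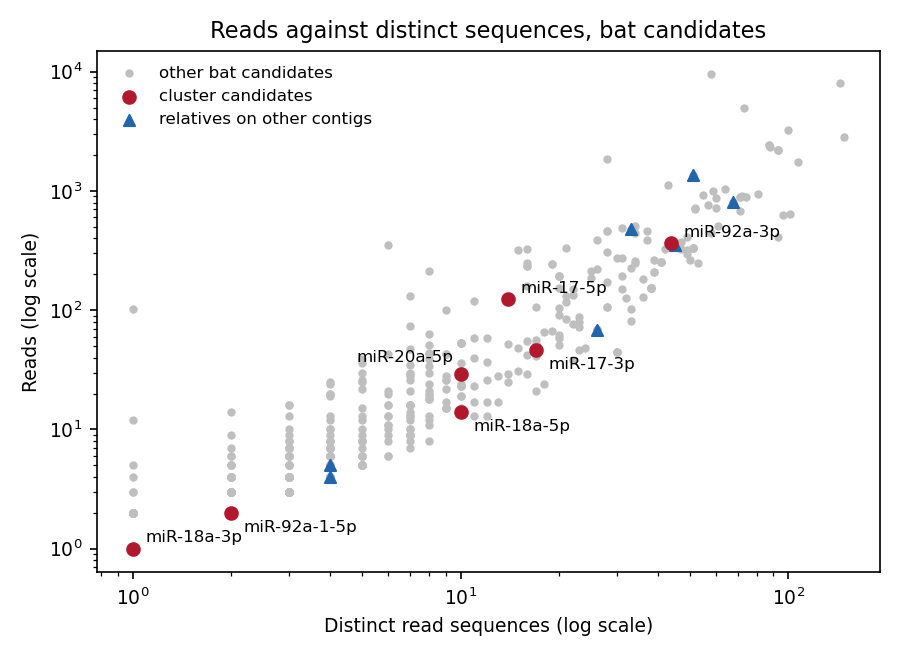
Reads against distinct read sequences for the 762 bat candidates, both on log scales, with the 7 cluster candidates as red circles, 7 relatives on other contigs as blue triangles and all others in grey. MiR-17-5p has more reads (124) from fewer distinct sequences (14) than miR-17-3p (46 from 17).

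In the bat list 5 of the 7 members lay above the median candidate, which had 3 reads, and 2 below it. MiR-92a-3p ranked 47 by reads, miR-17-5p 104, miR-17-3p 145, miR-20a-5p 171 and miR-18a-5p 227. The lesser arms, miR-92a-1-5p and miR-18a-3p, ranked 424 and 533, tied with 108 and 229 other candidates. At least 10 reads were listed for 5 of the 7 members, against 33.5% of all bat candidates. All 5 models of the prediction program called 5 of the 7, against 51.6% of the list. The exceptions were miR-20a-5p and miR-18a-3p, called by 4 models.

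Together the members held 580 of the 89091 listed bat reads, or 0.651% (0.599 to 0.706). Of all reads in the authors' analysis, a total that the counts and rounded fractions place between 98889 and 99340, they held between 0.584% and 0.587%. Without miR-92a-3p the cluster's share of listed reads was 0.243%, from 216 reads.

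The hairpins had less G and C than most of the list. Their GC content lay between 43.5% and 47.7%, and all 7 members, which share 4 hairpin loci, were under the list's lower quartile of 49.0% (median 55.5%). Predicted folding energy per 100 bases ran from -41.2 kcal/mol for miR-92a-3p to -27.9 for miR-18a-5p. The list median was -41.4, and its quartiles were -48.8 and -35.9. Both miR-18a candidates, at -27.9 and -28.3, folded more weakly than the weaker quartile. Of the mature bases, 75% to 91.3% were paired in the predicted fold, where the list median was 84%. Length was at the list's maximum of 25 bases for 4 of the 7 members and for 18.8% of all bat candidates.

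Relatives of the cluster were listed on other contigs. Mammals carry 2 further clusters of this kind, around miR-106a and miR-363 and around miR-106b and miR-25. Their mature sequences are shown for comparison of the seeds, with bases 2 to 8 in capitals:
miR-19b-3p, Candidate_281: cTGTGCAAatccatgcaaaactgat
miR-92a-3p copy, Candidate_282: tATTGCACttgtcccggcctgtg
miR-106b-3p, Candidate_812: tACCGCACtgtgggtacttgctgct
miR-93-5p, Candidate_813: cCAAAGTGctgttcgtgcaggtagt
miR-93-3p, Candidate_814: aCTGCTGAgctagcacttcccga
miR-25-3p, Candidate_815: cATTGCACttgtctcggtctgaca
miR-92b-3p, Candidate_798: tATTGCACtcgtcccggcctcc

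The miR-19 family was listed on another contig. MiR-19b-3p had 1352 reads in 51 distinct sequences at ALEH01127992.1, 26960 to 27104 on the plus strand. It carried GTGCAAA at bases 3 to 9, and it was the only bat candidate with this motif beginning within the first 4 bases. The miR-92a copy followed after 17 bases, and both together had 1704 reads. RefSeq places MIR19 and MIR92A next to each other and before GPC3, another glypican gene. Whether miR-19b reads also map to the gaps of the miR-17-92 contig was not tested, since no genome was used.

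The cluster around miR-106b also had more listed reads. On the minus strand of ALEH01035955.1, between 10802 and 11321, miR-106b-3p had 68 reads, miR-93-5p 477, miR-93-3p 5 and miR-25-3p 809. Their sum was 1359 reads, against 580 at the miR-17-92 contig. RefSeq lists MIR106, MIR93 and MIR25 in this order, after MCM7, a DNA replication helicase gene, and before COPS6. This gene order does not say whether they lie inside MCM7. MiR-92b-3p, at ALEH01118509.1, 24628 to 24766, had 4 reads.

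The cluster supplied the smaller part of the reads in the miR-17 and miR-92 seed families, and all those of the miR-18 seed. Of the 630 bat reads with AAAGTGC beginning within the first 4 bases, miR-93-5p gave 477, miR-17-5p 124 and miR-20a-5p 29, so the cluster held 24.3% (21.0 to 27.8). MiR-93-5p was equal to miR-17-5p at 20 of 25 bases. Of the 1529 reads with ATTGCAC at bases 2 to 8, miR-92a-3p of the cluster gave 364, or 23.8% (21.7 to 26.02), with its copy counted beside it. With the reads of that copy taken off both counts the share was 1.02%. MiR-25-3p, the highest of this family, was equal to miR-92a-3p at 18 of 23 bases. MiR-18a-5p, with 14 reads, was the only candidate of the miR-18 seed in the 3 lists.

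The 5p arm was favoured at miR-93 as well. It listed 477 reads on 5p and 5 on 3p, or 98.96% on 5p (97.6 to 99.7), and this interval lay above that of miR-17. At miR-106b the 3p arm was the listed one. Candidates of the ATTGCAC family were all listed with the seed on the 3p arm.

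**Figure D4:**
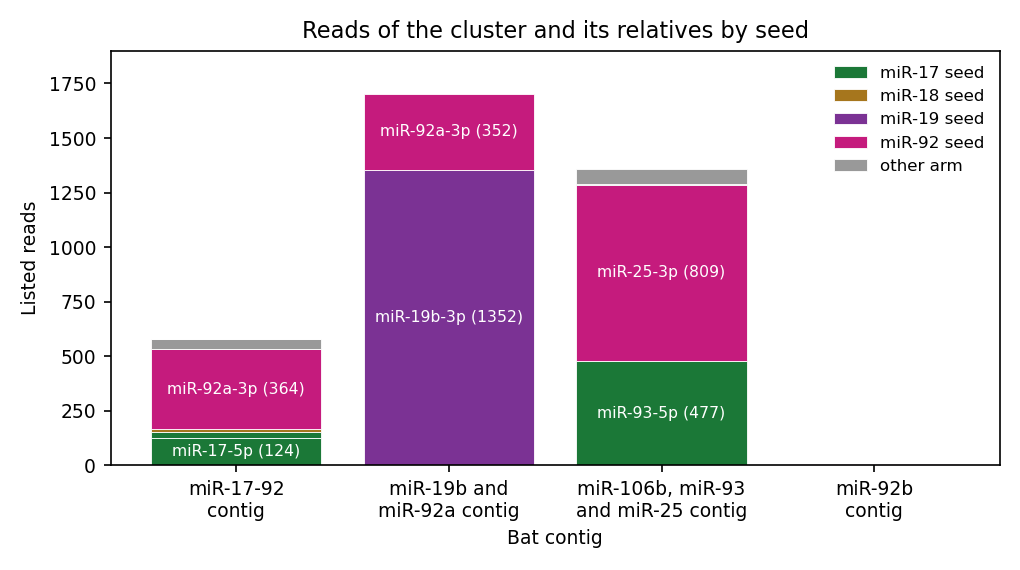
Listed reads of the cluster and its relatives on 4 bat contigs, stacked by candidate and coloured by seed family, with arms outside these seeds in grey. The miR-17-92 contig sums to 580 listed reads, below 1704 on the miR-19b contig and 1359 on the miR-106b contig. The 4 reads of miR-92b are too few to be seen. The 352 miR-92a reads listed on the miR-19b contig cannot be assigned between it and the miR-17-92 contig. Whether miR-19b reads also map to the miR-17-92 contig was not tested.

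The horse and dog lists offered almost no counterpart. No candidate among the 439 of the horse and the 252 of the dog had bases 2 to 8 equal to those of any member. With the motifs allowed to begin within the first 4 bases, the horse listed Candidate_483 on chromosome 10, 22832128 to 22832268 on the plus strand, with 4 reads and AAAGTGC from base 1. The bat list is labelled as one of new microRNAs. Whether known miRNAs were removed before the horse and dog lists were made is not given. An absence from these lists is thus not a species difference, and the levels of these miRNAs in horse and dog testis cannot be judged.

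MiRNAs linked to the germ line and to other cell types were listed in the same bat library, which does not by itself show those cells. MiR-34b-3p, miR-34c-3p and miR-449a-5p, linked to spermatogenesis, had 512, 460 and 414 reads. Smooth muscle and stroma miRNAs summed to 3816 reads. Of these miR-145-5p had 3276, miR-199a-3p 256 and miR-199a-5p 244, while miR-214-3p had 38 and miR-143-3p 2. The blood miRNA miR-486-5p was listed at a pair of candidates with 276 and 273 reads, miR-142-3p had 18 and miR-223-3p 3, and with miR-486-5p once they summed to 297. Epithelial markers summed to 575 reads, of which miR-200a-3p gave 388, endothelial to 141 and skeletal muscle to 98, with identical sequences counted once. The blood miRNA miR-451 was not among the listed sequences. In whole testis, fewer cells of a type and less RNA per cell cannot be told apart, and the part of each cell type in the cluster's reads was not tested.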

How the data were processed

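The lists are output of a local miRanalyzer installation, which predicts hairpins with 5 models, per the deposited column descriptions. The deposited counts are distinct read sequences and summed reads per candidate, without normalization. The deposited score, 4 or 5, says how many models called a candidate. The deposited fraction is reads over all reads in the authors' analysis, to 3 decimals. The submitters' processing notes name CanFam3.1 for every species, so the bat and horse builds, trimming and mapping settings are not stated in these sources.

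Positions are 1-based, which was checked on all 762 bat rows. Members were the rows of 1 contig. Candidates were named by hand from general knowledge of vertebrate miRNAs. The arm is the side of the hairpin middle on which the mature sequence lies. Named relatives were candidates sharing bases 2 to 8 with a member or belonging to the related clusters. The members and lists were chosen with earlier results of these data known. Motifs were searched on the listed strand, beginning at base 4 at the latest. Mature sequences were compared without gaps at start offsets up to 2. Hairpins were aligned locally with biopython 1.88 and folded with RNAfold 2.7.2. Python 3.11.15, numpy 2.4.6, scipy 1.17.1 and matplotlib 3.10.9 served for the rest, and matching steps were tested on simulated data. For substitutions, a case placed at another start offset also passed, so that test could not detect a wrong offset. The listed bat reads summed to 89091. Candidates with identical sequences can repeat a count, so this sum is not the depth of the library. With 1 library, no test was run.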

Additional observations from a re-analysis of the deposited data

How the results depend on the processing

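The cluster's share of listed bat reads, 0.651%, was 0.740% with identical mature sequences counted once, 0.729% without the most-read bat candidate, and 0.584% to 0.587% of all reads in the analysis. With 10 reads or all 5 models required it stayed inside its interval. Alternatives on the shared miR-92a-3p reads were chosen after seeing the data. Without that candidate the share was 0.243%, and less the other copy's reads 0.257%. The locus shares of miR-17, miR-18a, miR-20a and miR-92a then became 78.7%, 6.94%, 13.4% and 0.926% without it, and 74.6%, 6.58%, 12.7% and 6.14% less the other copy's reads. With the best candidate per locus, miR-17 had 23.4% and miR-92a 68.5%. By distinct sequences, miR-18a had 11.2%, miR-20a 10.2% and miR-92a 46.9%. The 5p share by distinct sequences was 45.2% at miR-17 and 4.35% at miR-92a, and 14.3% at miR-92a less the other copy's reads. The cluster's part of the ATTGCAC reads fell from 23.8% to 1.02% less the other copy's reads, taken off both counts.

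Of 46 alternative values, 23 stayed inside the interval of the value as reported. Some of the 23 could not change. The members' mature sequences all differ, so counting identical ones once left the locus and arm shares as they were. Neither the read nor the model filter removed an arm of miR-17, and the model filter removed none of miR-92a. The count of 23 is thus no measure of stability. With all 5 models required miR-20a had no candidate left, and miR-18a lost its 3p arm. With at least 10 reads required, miR-18a and miR-92a lost their lesser arm, so these gave no arm share. No paired analysis was possible because 1 bat library was used. Depth limits miR-18a-3p and miR-92a-1-5p, with 1 and 2 reads.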

Other observations

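The lesser arms of miR-17 and miR-18a began alike, unlike that of miR-92a. Of the 762 listed bat mature sequences, 3 began with ACTGC, namely miR-17-3p, miR-18a-3p and, outside the cluster, miR-93-3p with 5 reads. These letters were chosen after the sequences were seen, and 22.2% of all bat hairpins held ACTGC somewhere on the listed strand. The miR-20a hairpin also held ACTGC on the 3′ side of its listed sequence, although no 3p candidate was listed there.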
